A study of Mus musculus with 13 samples.

Results

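The Notch pathway genes described here were 9 of the 25965 genes in the expression table, taken by symbol: the receptors Notch1, Notch2 and Notch3, the ligands Dll1, Dll3 and Jag1, the glycosyltransferase Lfng and the target genes Hes1 and Hey1. Each symbol occupied 1 row. Expression was measured by RNA-seq in 13 libraries of female mouse embryonic stem cell (mESC) lines from FVB/NJ dams and CAST/EiJ sires, a hybrid used to follow X chromosome inactivation. The Day0 library came from cells expanded in 2i with LIF, a medium that holds mESCs undifferentiated. The other 12 libraries came from cells weaned into DME HiHi medium, which holds serum and no LIF. They were harvested on days 4, 5, 6 and 7 of differentiation, with 1 library per group and day. Cells of the control group carried a nonsilencing hairpin (Nons), and those of the other groups carried the hairpin Smarcc1.6 or Smarcc1.7 against Smarcc1, whose product is a scaffold subunit of BAF, a complex that moves nucleosomes. All 3 groups were transduced with retroviral shRNA on day 2 and selected with puromycin on day 3, whereas Day0 precedes both steps. The cultures were mixed populations, and in such bulk samples fewer cells of a type and less RNA per cell cannot be told apart.

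Notch signalling passes between neighbouring cells. A Delta or Jagged ligand on one cell pulls on a Notch receptor of the next, the receptor is cut by an ADAM protease and then by gamma-secretase, and the freed intracellular domain joins the DNA-binding protein RBPJ to switch on targets such as the HES and HEY repressors. Fringe enzymes such as the product of Lfng extend sugars on the receptor and change which ligands it answers to. In the early embryo the pathway takes part in the choice between neural and mesodermal fates and in the segmentation of the paraxial mesoderm.

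Values are log2 CPM, that is log2 of the reads of a gene scaled to a common library size (counts per 1000000 mapped reads), and a difference of 1 is a 2-fold change. The shallowest library (Smarcc1.7, day 5) had 13993440 mapped reads and the deepest (Smarcc1.6, day 4) had 63548093, with 22287024 at Day0. The Day0 library and the 3 day 6 libraries had 85.3% to 86.5% of reads inside genes, against 91.6% to 92.6% in the other 9. The hairpins were therefore compared with Nons within a day, whereas the change per day runs across this difference. Of all tested genes, 4.17% lay at least 1 log2 unit above, or below, the mean of days 5 and 7 on day 6 in all 3 groups, and 0 of the 9 members did. Smarcc1, the targeted gene, was lower than in the same-day Nons library in 8 of 8 comparisons, with a knockdown estimate of -1.06 ± 0.142 (SE, limma adjusted p = 0.00232). The labelled cell type was checked with markers of pluripotency, whose summed level over 8 genes was 4480 CPM at Day0 and between 1101 and 2571 CPM in the 12 later libraries. The sum does not describe each gene, since Pou5f1 was at 10.24 at Day0 and between 9.55 and 10.58 later. None of the 8 was at 0 reads in any library.

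The members Dll1, Dll3 and Lfng stood near the limit of detection at Day0 and were expressed on day 4 in all groups, and their RefSeq promoters (build GRCm38.p6, from 250 bases before to 50 after the start of transcription) are shown for that reason. Capitals mark matches on either strand to 3 short motifs. These are TGGGAA, the core bound by RBPJ, CACGTG, an E-box of the kind bound by HES and HEY proteins and other bHLH factors, and CAGCTG, an E-box of the kind bound by proneural and myogenic bHLH factors.
Lfng promoter (chr5:140607091-140607390, plus strand): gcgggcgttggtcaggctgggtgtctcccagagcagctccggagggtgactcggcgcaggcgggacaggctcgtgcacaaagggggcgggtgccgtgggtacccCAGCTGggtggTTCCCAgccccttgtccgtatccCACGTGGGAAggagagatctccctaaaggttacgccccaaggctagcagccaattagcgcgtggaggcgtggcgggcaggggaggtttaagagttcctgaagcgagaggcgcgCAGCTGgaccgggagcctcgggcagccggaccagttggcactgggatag
Dll3 promoter (chr7:28301736-28302035, minus strand): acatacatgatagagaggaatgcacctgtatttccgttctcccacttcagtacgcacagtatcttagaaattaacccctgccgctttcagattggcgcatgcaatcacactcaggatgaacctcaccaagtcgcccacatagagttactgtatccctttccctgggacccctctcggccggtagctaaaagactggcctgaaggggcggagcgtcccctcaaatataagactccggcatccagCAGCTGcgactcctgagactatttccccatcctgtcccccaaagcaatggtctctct
Dll1 promoter (chr17:15376883-15377182, minus strand): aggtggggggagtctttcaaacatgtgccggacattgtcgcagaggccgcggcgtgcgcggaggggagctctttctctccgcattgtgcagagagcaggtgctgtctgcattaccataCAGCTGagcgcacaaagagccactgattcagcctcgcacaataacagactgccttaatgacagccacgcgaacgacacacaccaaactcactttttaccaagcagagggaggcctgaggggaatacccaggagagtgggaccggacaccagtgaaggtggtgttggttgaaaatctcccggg
The Lfng window held 2 matches to TGGGAA, starting 135 and 108 bases before the start of transcription, and the latter overlapped a match to CACGTG starting 112 bases before it. It also held 2 matches to CAGCTG. The Dll3 window and the Dll1 window shown held 1 match to CAGCTG each and none to the other motifs. A further Dll1 promoter in RefSeq (chr17:15375774-15376073) held no match to any of the 3. Among the 8 promoters found for 7 of the 9 members, only the Lfng window held TGGGAA or CACGTG, and CAGCTG also occurred in that of Jag1. Of all 32851 promoters of this length, 25.6% held TGGGAA, 7.15% held CACGTG and 16.3% held CAGCTG, so these matches are descriptions of the letters in the window and do not mark a bound site. The gene rows of the files, in mm10, placed Lfng at chr5:140607341-140615543, Dll3 at chr7:28293553-28302238 and Dll1 at chr17:15367354-15376872. The Dll3 window lies inside its row, whose upstream end is further out, and the Dll1 window shown lies wholly upstream of its row. Each value below is over the reads of such a protein-coding gene.

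The receptors were expressed in all 13 libraries. Notch1 (chr2:26457903-26516663) was at 5.46 at Day0. On days 4 to 7 it was at 5.16, 4.82, 5.01 and 5.28 in Nons, at 5.15, 4.97, 5.11 and 5.00 in Smarcc1.6, and at 5.23, 5.10, 4.94 and 6.00 in Smarcc1.7. The Smarcc1.7 library of day 7 was the highest of the 13 and the groups overlapped. Notch2 (chr3:98013538-98150367) was at 4.99 at Day0 and higher in all 12 later libraries. It went through 5.50, 6.33, 6.47 and 6.69 in Nons, 5.42, 6.02, 6.25 and 6.41 in Smarcc1.6, and 5.38, 5.96, 6.03 and 6.65 in Smarcc1.7. On each day the Nons library was the highest of the 3. Notch3 (chr17:32120820-32166880), a receptor best known from vascular smooth muscle, was at 5.33 at Day0 and at 5.26, 6.76, 6.95 and 7.05 in Nons. It was at 4.59, 6.07, 6.87 and 7.10 in Smarcc1.6 and at 4.77, 6.16, 6.72 and 7.90 in Smarcc1.7. Both hairpins lay below Nons on days 4, 5 and 6 and above it on day 7, when the Smarcc1.7 library again stood highest.

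The ligands followed 3 separate courses. Dll1, the Delta ligand of the presomitic mesoderm and of neural progenitors, had 1 read at Day0 and 83 to 923 reads in the later libraries. Its level was 3.95, 3.77, 1.24 and 2.00 in Nons, 3.33, 4.26, 3.80 and 1.45 in Smarcc1.6, and 3.43, 4.49, 2.81 and 1.75 in Smarcc1.7. Nons was highest on day 4 and day 7 and lowest on days 5 and 6, and on day 6 it was 2.56 below Smarcc1.6 and 1.57 below Smarcc1.7. Dll3, a divergent Delta protein that acts on receptors within its own cell, had 5 reads at Day0. It was at 1.18, 3.18, 3.0 and 3.30 in Nons, at -0.04, 2.21, 3.16 and 2.84 in Smarcc1.6, and at -0.02, 2.55, 3.22 and 2.69 in Smarcc1.7. Both hairpins lay below Nons on days 4, 5 and 7 and above it on day 6. Jag1 (chr2:137081456-137116644), a Jagged ligand, was at 4.43 at Day0 and lower in all 12 later libraries, where it ranged from 2.73 (Smarcc1.7, day 4) to 3.6 (Smarcc1.6, day 6). Its groups overlapped.

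Lfng had 5 reads at Day0 and 102 to 1063 reads later. It was at 3.62, 3.73, 4.55 and 3.16 in Nons, at 2.87, 2.69, 4.08 and 4.18 in Smarcc1.6, and at 3.27, 2.87, 4.71 and 4.18 in Smarcc1.7. Both hairpins were lower than Nons on days 4 and 5 and higher on day 7, by 1.02 in Smarcc1.6 on that day.

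The target genes followed different courses. Hes1 (chr16:30064384-30067796), a repressor that also answers to LIF and BMP in mESCs, was at 4.98 at Day0 and lower in all 12 later libraries. From day 4 to day 7 it went through 2.46, 3.45, 4.36 and 4.81 in Nons, 2.61, 2.79, 4.27 and 4.71 in Smarcc1.6, and 2.75, 3.30, 4.29 and 4.74 in Smarcc1.7. On days 6 and 7 the 3 groups lay close together, with both hairpins just under Nons. Hey1 (chr3:8663362-8667039), a related repressor, was at 0.38 at Day0 from 29 reads. It was at 1.56, 2.05, 1.79 and 1.26 in Nons, 2.11, 2.12, 1.59 and 0.37 in Smarcc1.6, and 1.85, 2.55, 1.40 and 1.08 in Smarcc1.7. Both hairpins were above Nons on days 4 and 5 and below it on days 6 and 7.

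**Figure D1:**
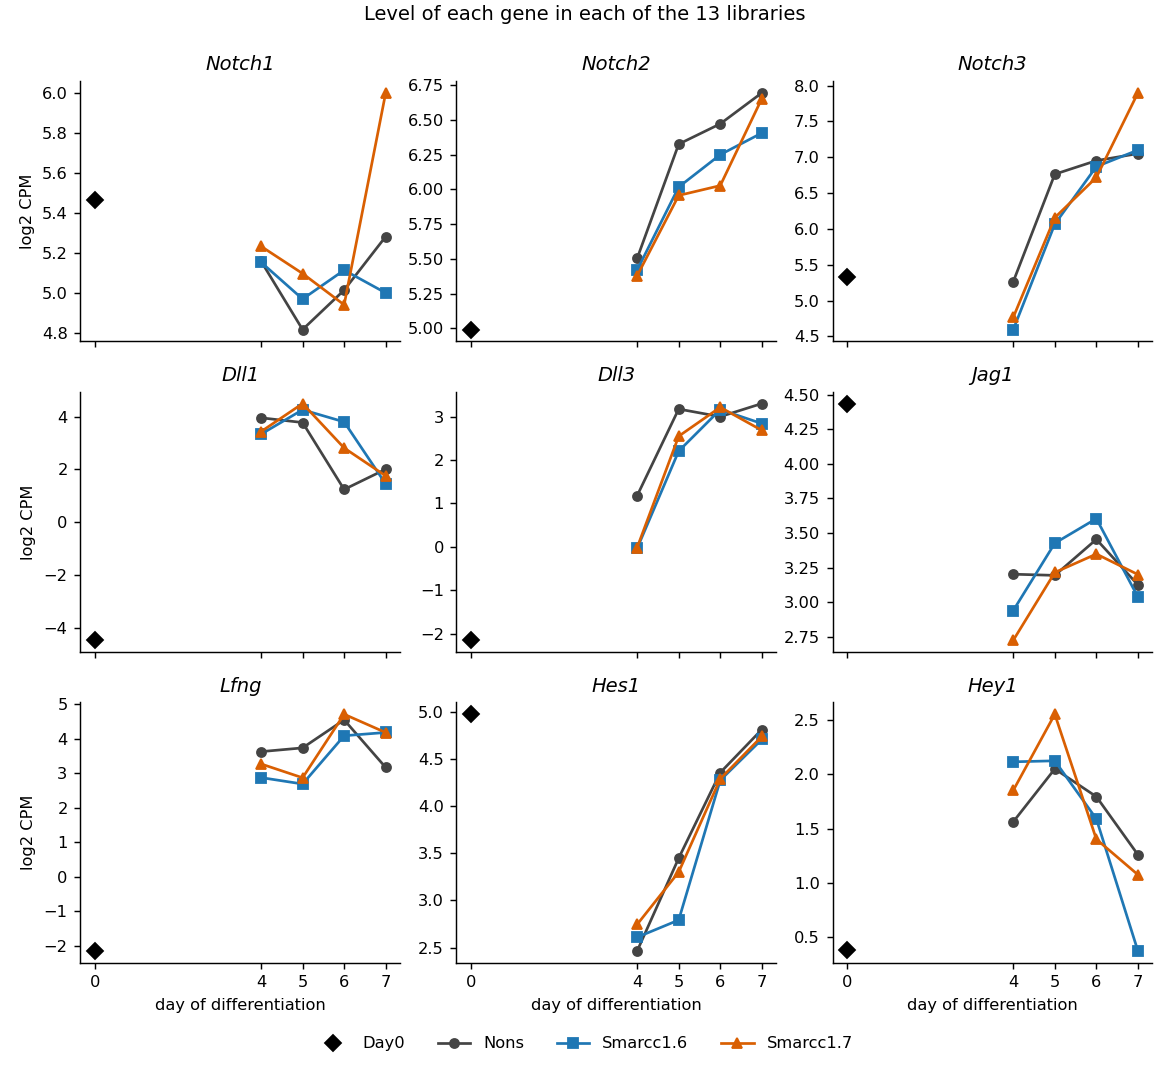
Level of each of the 9 Notch pathway genes (y axis, log2 CPM, a separate scale per panel) by day of differentiation (x axis), 1 point per library, for Day0 and the 3 groups. Dll1, Dll3 and Lfng rise from their lowest points at Day0 (1, 5 and 5 reads), Notch2, Notch3 and Hes1 climb from day 4 to day 7 in every group, and Notch1 and Notch3 reach 6.00 and 7.90 in the Smarcc1.7 library of day 7.

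To set the genes against each other, CPM was divided by the length of the merged exons (GENCODE M21), and these levels per kb are a description. By the mean of the log2 level over the 12 libraries of days 4 to 7 the order was Notch3, Hes1, Notch2, Lfng, Notch1, Dll1, Dll3, Jag1, Hey1. The mean ± SD over the 12 libraries was 12.3 ± 7.39 CPM per kb for Notch3, 7.63 ± 4.30 for Hes1, 6.61 ± 1.98 for Notch2 and 5.59 ± 2.61 for Lfng. It was 2.55 ± 0.648 for Notch1, 2.47 ± 1.59 for Dll1, 2.15 ± 1.14 for Dll3, 1.6 ± 0.260 for Jag1 and 1.02 ± 0.374 for Hey1. These SDs cover days and groups together. Between neighbours in that order, the log2 difference exceeded its SD over the libraries for Notch3 over Hes1 (0.65 ± 0.456), Lfng over Notch1 (1.02 ± 0.738) and Jag1 over Hey1 (0.73 ± 0.607), and it did not for the other 5 pairs. At Day0 the order was another one, with Hes1 at 15.4 CPM per kb, Notch3 at 4.98, Jag1 at 3.71, Notch1 at 3.10 and Notch2 at 2.95, and with Hey1 at 0.399, Lfng at 0.0896, Dll3 at 0.0787 and Dll1 at 0.0106.

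**Figure D2:**
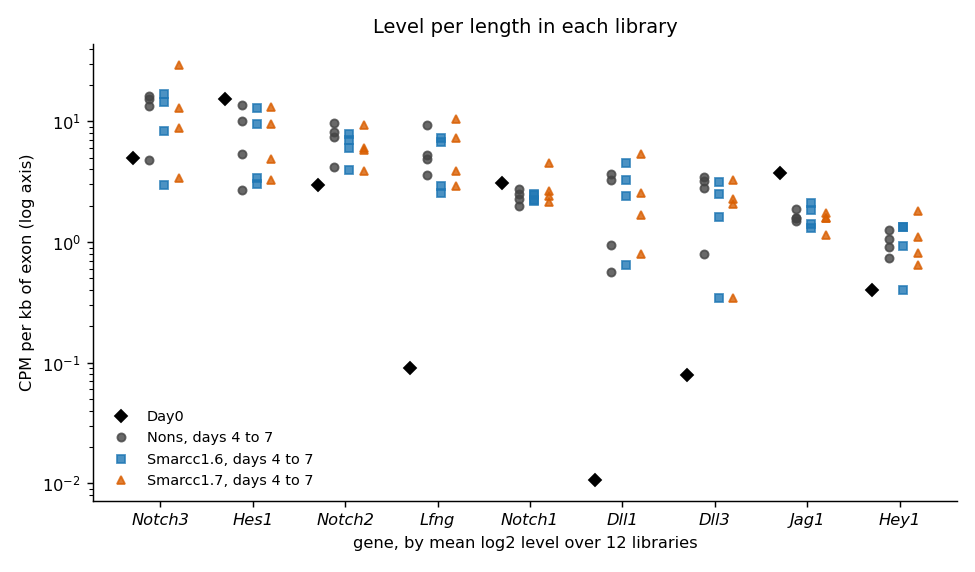
Level per length of each gene (y axis, CPM per kb of merged exon, log axis), 1 point per library, with genes on the x axis ordered by their mean log2 level over the 12 libraries of days 4 to 7. Lfng, Dll1 and Dll3 have Day0 points far below all of their later ones, and Hes1 and Jag1 have Day0 points above all of theirs.

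The change per day from day 4 to day 7 was fitted across the 12 libraries with the group as a covariate (limma, Benjamini-Hochberg adjustment over 13406 tested genes). The fit counted the 12 libraries as independent although they come from 4 harvest days. Its SEs and p-values can therefore be too small, and they measure the spread between these libraries only. All 9 members were among the tested genes. Of the members, 6 changed with day, 4 rising and 2 falling, where 60.5% of all tested genes changed, 34.9% rising and 25.6% falling. A share of 6 in 9 is near that background. Day 6 differed from the other days in the share of reads inside genes, and leaving it out changed no member's call. The median library level of autosomal genes itself rose by 0.085 per day.

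Among the receptors Notch3 rose by 0.79 ± 0.102 (SE) per day, a factor of 1.73 (limma adjusted p = 7.40e-05), and Notch2 by 0.36 ± 0.0445 (adjusted p = 5.83e-05). Without day 4 the estimate for Notch3 was 0.51 (adjusted p = 0.0118). The estimate for Notch1 was 0.08 ± 0.0710 per day (adjusted p = 0.354). Smooth muscle and mesenchyme markers rose over the same days. All 5 markers of that list rose per day, where 34.9% of all tested genes did. So did 3 of 4 tested trophoblast, 2 of 4 neural, 2 of 4 endoderm and 1 of 2 nascent mesoderm markers. Of pluripotency and endothelial markers 0 rose. The summed level of the 5 on days 4 to 7 was 7.23, 56.5, 755 and 981 CPM in Nons. It was 7.38, 14.9, 290 and 1287 in Smarcc1.6 and 7.28, 18.5, 455 and 1216 in Smarcc1.7. Most of the rise of Notch3 in Nons lay between day 4 (5.26) and day 5 (6.76). None of the 5 was at 0 reads in any of the 12 libraries of days 4 to 7, and their part in the rise of Notch3 was not tested. Hes1 rose by 0.76 ± 0.0615 per day, a factor of 1.69 (adjusted p = 4.56e-06), with the smallest adjusted p among the 9 members, and no alternative fit lost this call.

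Dll3 rose by 0.82 ± 0.191 per day (limma adjusted p = 0.00359), most of it between day 4 and day 5. Without day 4 its estimate was 0.15 (adjusted p = 0.388), and without day 7 it was 1.38 (adjusted p = 0.00215). Dll1 fell by 0.71 ± 0.204 per day (adjusted p = 0.0117). It fell by 1.22 per day without day 4 (adjusted p = 0.00621), and its estimate without day 7 was -0.48 (adjusted p = 0.256). Hey1 fell by 0.35 ± 0.117 per day (adjusted p = 0.0251). That call was lost without Smarcc1.6 on day 4 or day 7 (-0.34 and -0.24), without Smarcc1.7 on day 7 (-0.33), without day 5 (-0.29) or without day 7 (-0.12), and the estimate was -0.67 without day 4. Lfng had an estimate of 0.31 ± 0.152 (adjusted p = 0.10), which passed the threshold at 0.49 without the Nons library of day 7 (adjusted p = 0.00714) and at 0.60 without day 7 (adjusted p = 0.0245). Jag1 had an estimate of 0.07 ± 0.0667 (adjusted p = 0.396), which passed at 0.26 without day 7 (adjusted p = 0.0150).

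The Day0 library has no matched control and 1 replicate, and of the later libraries those of day 6 were nearest to it in the share of reads inside genes. From Day0 to day 6, Notch2 was higher by 1.48 (Nons), 1.26 (Smarcc1.6) and 1.04 (Smarcc1.7), and Notch3 by 1.62, 1.54 and 1.39. Jag1 differed by -0.98, -0.83 and -1.09, and Hes1 by -0.62, -0.70 and -0.69. Notch1 differed by -0.45, -0.35 and -0.52. Hey1 was higher by 1.41, 1.21 and 1.02. For each of these genes the 3 groups had the same sign. On day 6 Lfng had 822, 632 and 831 reads against 5 at Day0, Dll3 had 282, 334 and 296 against 5, and Dll1 had 83, 518 and 223 against 1.

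Whether Smarcc1 knockdown altered the pathway was asked with both hairpins against Nons and day as a factor. Of the 9 members, 1 passed the threshold, where 11.6% of all tested genes did, so the count is near the background. The test used 12 libraries, and the 4 days served as replicates. Nothing in the labels says that the days came from separate cultures, so p-values measure the spread between these libraries only. Notch2 was lower in 8 of 8 same-day comparisons, by a log2 difference of -0.24 ± 0.0691 (SE, limma adjusted p = 0.0478), or 0.849 times the Nons level. No other member kept 1 sign through all 8, while 15.0% of tested genes did. The Notch2 call was marginal. It held in 4 of 25 alternative fits (log2(CPM + 1), and leaving out Nons day 4, Smarcc1.7 day 7 or all of day 7), and the estimate stayed between -0.28 and -0.20 in all 25.

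Dll3 had the largest estimate among the members, -0.59 ± 0.186 (limma adjusted p = 0.0616), or 0.665 times Nons, and was lower in 6 of 8 comparisons. On day 4 the differences were -1.21 and -1.20, on day 5 -0.97 and -0.63, on day 6 0.16 and 0.22, and on day 7 -0.46 and -0.62, for Smarcc1.6 and Smarcc1.7. It passed the threshold when 1 control library was left out. Without Nons on day 6, or without day 6, the estimate was -0.85 (adjusted p = 0.0213 and 0.0441). Notch3 had an estimate of -0.24 ± 0.172 (adjusted p = 0.404) and was lower in 6 of 8 comparisons, and it passed at -0.36 without Smarcc1.7 on day 7 (adjusted p = 0.0478) and at -0.46 without day 7 (adjusted p = 0.0175).

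The other 6 members did not pass the test. Dll1 had an estimate of 0.42 with a 95% interval of -0.33 to 1.18, wide enough to hold a rise of more than 2-fold. Lfng had -0.16 (-0.70 to 0.38), Notch1 0.12 (-0.19 to 0.43), Hes1 -0.09 (-0.34 to 0.17), Jag1 -0.06 (-0.30 to 0.19) and Hey1 -0.03 (-0.47 to 0.41). The intervals of Hes1 and Jag1 exclude a 2-fold difference in either direction, as do those of Notch1, Lfng and Hey1. Over the 9 members the median estimate was -0.09, beside -0.01 over all tested genes. Some markers of other cell states moved with knockdown. Of 8 pluripotency markers 5 were called higher and 0 lower, against 6.88% and 4.77% of all tested genes. Pou5f1, the highest of the 8 in the later libraries, was not called (0.07, limma adjusted p = 0.604). Summed levels of the 8 overlapped, at 1104 to 1743 CPM in Nons, 1373 to 2571 in Smarcc1.6 and 1101 to 2134 in Smarcc1.7. Of the tested markers of other types, 2 of 4 neural and 1 of 4 endothelial were called higher. Called lower were 1 of 4 endoderm and 2 of 2 nascent mesoderm markers. The 2 nascent mesoderm markers include T, which is also in the list of segmentation genes below. Of smooth muscle and trophoblast markers 0 were called. The summed level of 6 nascent mesoderm markers on days 4 to 7 was 40.6, 33.1, 112 and 335 CPM in Nons. It was 51.1, 20.7, 24.1 and 68.8 in Smarcc1.6, and 46.5, 21.6, 22.7 and 32.8 in Smarcc1.7. Nons was the lowest of the 3 groups on day 4 and the highest on days 5, 6 and 7. Of the 6, 3 were at 0 reads in at least 1 library. The part of these markers in the differences of Notch2 and Dll3 was not tested.

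**Figure D3:**
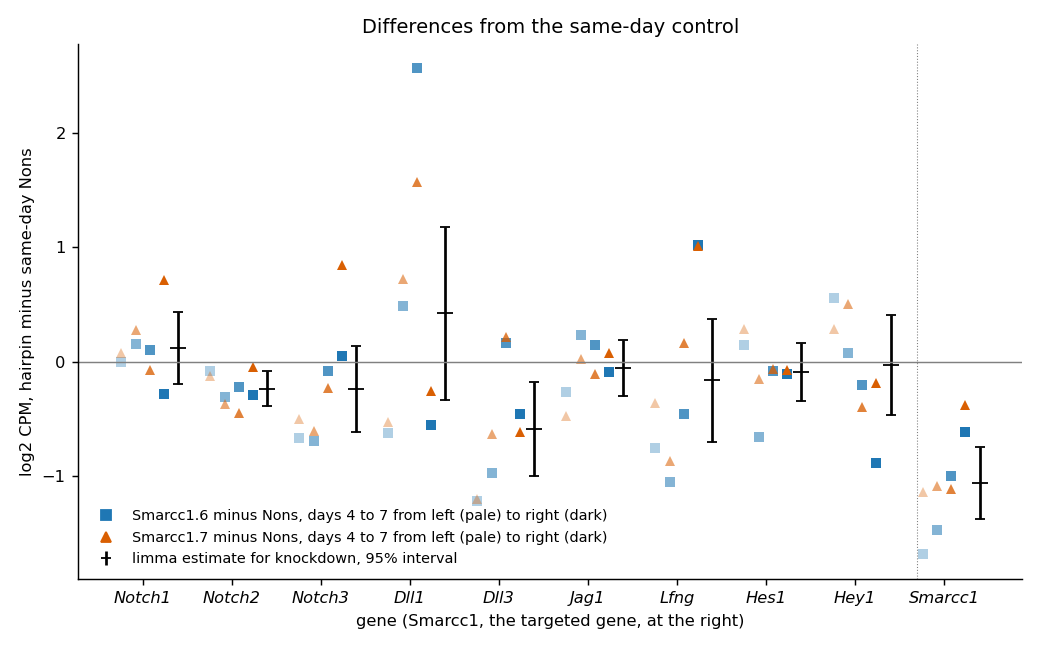
Difference in log2 CPM between each hairpin library and the Nons library of the same day (y axis) for the 9 Notch pathway genes and Smarcc1 (x axis). Points run from day 4 to day 7 within each gene, and the black bar is the limma estimate for knockdown with its 95% interval. Notch2 lies below 0 in 8 of 8 comparisons at small size, Dll1 spans from -0.62 to 2.56, and Smarcc1 lies below 0 in 8 of 8.

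Neither hairpin alone had a member past the threshold. For Smarcc1.6 against Nons 0 of the 9 members were called where 9.3% of tested genes were, and 2 members and 25.1% of tested genes had an unadjusted p under 0.05. For Smarcc1.7 against Nons 0 of the 9 were called where 2.45% of tested genes were, and again 2 had an unadjusted p under 0.05, beside 21.2% of tested genes. The estimates for Notch2 were -0.23 ± 0.0832 and -0.25 ± 0.0832 (limma adjusted p = 0.121 and 0.133), and those for Dll3 were -0.62 ± 0.225 and -0.56 ± 0.225 (adjusted p = 0.114 and 0.191), for Smarcc1.6 and Smarcc1.7. The hairpins share the 4 Nons libraries. For Smarcc1.6, Notch3 and Lfng passed without Nons on day 7 (-0.58 and -0.70) and without day 7 (-0.48 and -0.75), and Dll3 passed without Nons on day 6 (-0.88). Between the hairpins limma called 0 members and 0% of tested genes, with 0 members and 530 of 13406 genes at an unadjusted p under 0.05. The widest gap in estimates between hairpins was Lfng, 0.30 higher in Smarcc1.7 with a 95% interval of -0.33 to 0.93, followed by Notch1 at 0.26 (-0.08 to 0.60).

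Several members crossed the control over time, so the product of knockdown and day was fitted too. It called 0 of the 9 members and 0% of tested genes, with 0 members and 682 genes at an unadjusted p under 0.05. Lfng had the largest estimate, 0.55 ± 0.290 per day (limma adjusted p = 0.9998), followed by Notch3 at 0.36 ± 0.195 and Hey1 at -0.35 ± 0.236. With 1 library per group and day, a crossing such as that of Lfng on day 7 or Dll1 on day 6 rests on 1 Nons library.

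The rest of the pathway was read from a list of 56 other genes, of which 45 were tested. The list was chosen with earlier results of these data known, so its counts are descriptions. Under knockdown 6 were higher and 2 lower, against 6.88% and 4.77% of all tested genes, and the median estimate was -0.05 beside -0.01 over all tested genes. Rbpj, the DNA-binding partner of the Notch intracellular domain, was 0.47 ± 0.0696 higher (limma adjusted p = 0.00349). It was at 7.40, 6.37, 5.79 and 6.15 in Nons, 8.01, 6.98, 6.13 and 6.52 in Smarcc1.6, and 7.93, 6.75, 6.06 and 6.80 in Smarcc1.7, above Nons in 8 of 8 comparisons. Kat2b, an acetyltransferase of the active complex, was 0.52 higher (adjusted p = 0.00438). Mib2, a ubiquitin ligase that acts on Delta ligands, was 0.76 higher (adjusted p = 0.00469), and Dtx1, a ubiquitin ligase of the Deltex family that binds Notch, was 0.65 higher (adjusted p = 0.00364). These 4 genes were also called with each hairpin against Nons, and each was above Nons in 8 of 8 comparisons. No single library or day, when left out, ended their knockdown calls, while their calls with Smarcc1.7 alone held in 11 to 13 of 23 alternatives.

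Notch4, the remaining receptor, was 1.13 ± 0.268 higher (limma adjusted p = 0.0206). It was at 6.53 at Day0 and at 4.24, 0.79, 0.42 and 0.75 in Nons, 5.49, 3.40, 1.72 and 0.88 in Smarcc1.6, and 5.28, 2.57, 1.29 and 0.84 in Smarcc1.7. Every later value was thus below that of Day0, with both hairpins above Nons on each day. The summed level of 7 endothelial markers was 239 CPM at Day0. It ran from 20.8 to 60.8 CPM in Nons, 17.5 to 103 in Smarcc1.6 and 15.8 to 80.1 in Smarcc1.7. Of the 7, 1 was at 0 reads in at least 1 library of days 4 to 7. Of the 4 tested, Pecam1, which was at 7.81 at Day0, was called higher (1.18, adjusted p = 0.00855), and the estimates for Tek (0.34), Etv2 (-0.50) and Kdr (-1.10) did not pass. Their part in the Notch4 values was not tested. Of the Groucho corepressors Tle4 was 0.31 higher (adjusted p = 0.0339) and Tle3 was lower (-0.40, adjusted p = 0.00930). Numb, an inhibitor of the receptor, was lower (-0.23, adjusted p = 0.0494). Maml3, a coactivator, was lower with Smarcc1.6 (-0.68, adjusted p = 0.0457, a call that held in 4 of 22 alternatives), whereas its estimate with Smarcc1.7 was 0.25 (adjusted p = 0.474). The Notch4 call was lost without Nons on day 5 (0.78, adjusted p = 0.0907) or day 6 (1.15, adjusted p = 0.0674) and without all of day 4, 5 or 6 (1.13, 0.78 and 1.15), and that of Tle3 without day 6 (-0.41, adjusted p = 0.0521). The calls of Tle4 and Numb were lost in 15 and 21 of 25 alternatives, among them leaving out Nons on day 6 (0.27 and -0.18).

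Of the 6 genes higher under knockdown, 5 (Rbpj, Kat2b, Mib2, Notch4 and Tle4) fell per day across the 12 libraries, and the estimate for Dtx1 was -0.01 (limma adjusted p = 0.901). Over all tested genes 25.6% fell per day. The share among all genes higher under knockdown was not computed, so the 5 cannot be called particular to the pathway. None of the 8 tested cleavage genes (ADAM proteases, furin and gamma-secretase subunits), 4 other ligands and 4 glycosylation genes passed limma's test for knockdown, and 2, 1 and 2 of them had an unadjusted p under 0.05, as did 28.1% of tested genes. The number of other pathway genes called was 8 and changed by more than 1.5 times without Nons on day 4 (14), without Nons on day 5 (5) or day 6 (5), and without day 5 (5) or day 6 (4). Per day 29 of the 45 changed, 16 rising and 13 falling, where 60.5% of tested genes changed, 34.9% rising and 25.6% falling. On day 6, 2 of the 45, Psenen and Hdac1, lay more than 1 unit below the mean of days 5 and 7 in all 3 groups, as did 4.17% of tested genes in either direction.

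**Figure D4:**
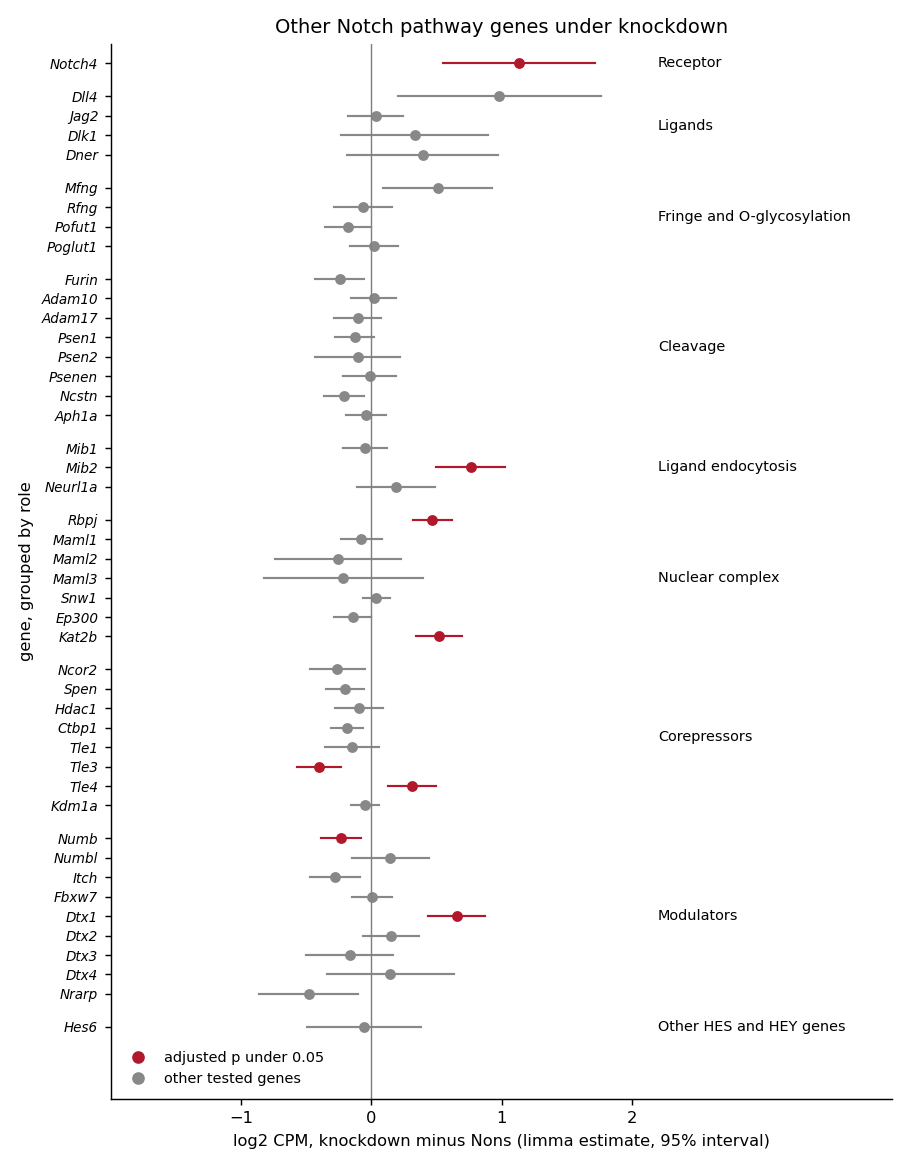
Limma estimate of the knockdown difference in log2 CPM, with its 95% interval (x axis), for the 45 tested genes of the wider pathway (y axis), grouped by role. Red marks the 8 genes with an adjusted p under 0.05, of which Notch4, Mib2, Rbpj, Kat2b, Tle4 and Dtx1 lie to the right of 0 and Tle3 and Numb to the left.

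Of the other HES and HEY genes only Hes6, which counters Hes1, passed the filter on low values, with a knockdown estimate of -0.05 (limma adjusted p = 0.889). The remaining 7 were not tested. Hes5, the main Notch target of neural progenitors, had at most 10 reads in any library, Hes7, the oscillator of the segmentation clock, at most 33, and Heyl at most 10. Of 8 proneural genes, which Notch signalling restrains in neural tissue, 3 were tested and 1 was called, where 11.6% of all tested genes were. These genes were listed with earlier results of these data known, so the count is a description. Neurog3 had 231, 37, 1 and 0 reads in Nons, 308, 283, 237 and 96 in Smarcc1.6, and 255, 86, 89 and 42 in Smarcc1.7 (adjusted p = 0.00877). It was therefore nearly lost from Nons by day 6 and still counted in both hairpins, and no fold is given because of the low control counts. The call was lost without day 5 (adjusted p = 0.0505) or day 6 (adjusted p = 0.0575).

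Of 13 genes of the segmentation clock and the paraxial mesoderm, in which Dll1, Dll3 and Lfng act in the embryo, 8 were tested. Of these 4 were called, 3 lower and 1 higher, against 11.6% of all tested genes. The other 4 did not pass. Their estimates were 1.45 for Ripply1 (limma adjusted p = 0.0557), 1.41 for Meox1 (adjusted p = 0.220), -0.22 for Mesp2 and -0.40 for Axin2. This list too was chosen with earlier results of these data known, so its count is a description and no test of the set. Fgf8, a growth factor of the primitive streak, was lower (-1.88 ± 0.235, limma adjusted p = 0.00186). So were Rspo3, a Wnt agonist (-1.74, adjusted p = 0.00749), and the mesoderm factor T (-2.50, adjusted p = 0.0341). Rspo3 had 7 to 33 reads in the hairpin libraries of days 4 to 6. Its estimate was -1.09 with log2(CPM + 1) (adjusted p = 0.0115). T was lower in 6 of 8 comparisons, and both hairpins were above Nons on day 4 (1.28 and 1.02 against 0.97). T was also counted among the nascent mesoderm markers above, so those 2 counts share a gene. Tcf15, a bHLH factor of the paraxial mesoderm that is also expressed in mESCs, was higher (1.00, adjusted p = 0.0299). Fgf8 was at 2.49, 3.74, 5.42 and 6.85 in Nons and at 1.22, 2.11, 2.56 and 5.00 in Smarcc1.6, and at 1.62, 2.48, 2.59 and 4.44 in Smarcc1.7, below Nons in 8 of 8 comparisons. The Fgf8 call held in 23 of 25 alternatives. That of Rspo3 was lost without day 6 (-1.35, adjusted p = 0.0626). Those of T and Tcf15 were lost in 14 and 13 of 25 alternatives, among them leaving out Nons on day 6 (-1.82 and 0.69) or on day 7 (-1.87 and 0.77). Among the genes not tested, Msgn1 had at most 25 reads in any library and Tbx6 at most 39. Mesp1, also not tested, had 15, 3, 24 and 295 reads on days 4 to 7 in Nons. It had 16, 3, 0 and 36 in Smarcc1.6 and 29, 0, 0 and 1 in Smarcc1.7.

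The genes whose values within days ran most like those of each member were found by Pearson's r over the 12 libraries, after subtracting the mean of the 3 groups on each day. These are descriptions, since each is the highest of 13406 genes and all share the same libraries. The closest were Srp68 for Notch3 (r = 0.978), Hnrnpul2 for Notch2 (0.970), Kdelc2 for Notch1 (0.960), Rbm47 for Dll1 (0.979), Gm17688 for Dll3 (0.960), Klhdc5 for Jag1 (0.961), Rln3 for Lfng (0.954), AI987944 for Hes1 (0.948) and 2210404O09Rik for Hey1 (0.923).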

How the data were processed

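RNA from the 13 libraries was made into TruSeq libraries and sequenced as paired-end reads on a NextSeq500. After trimming (trim_galore), the authors mapped the reads with tophat or hisat2 (TopHat2 2.0.12 per the labels) to an mm10 genome in which the SNPs between the parental strains were masked. The authors counted reads per gene in Seqmonk and deposited log2 values of CPM, both alleles together. The strand setting and annotation release are not given in the sources used here, so reads of overlapping or antisense genes cannot be told apart. The values lay on steps of whole reads (100% of low values within 0.05 reads), which gave the depth of each library, and 0 reads were written as 0.9 reads. At the lowest and highest depth 3 reads correspond to a log2 CPM of -2.22 and -4.40.

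The tests took the 13406 genes whose log2 CPM averaged 0 or more in the 12 libraries that follow Day0. Models were fitted with limma 3.58.1 in R 4.3.3 (eBayes with trend), with Benjamini-Hochberg adjustment over all of these genes and a threshold of 0.05. Day was a factor in the fits of knockdown and of each hairpin. The change per day was adjusted for group, and the interaction was the product of knockdown and day. Day numbers pair the groups by harvest day. The scripts were tested on simulated data. Exon lengths came from GENCODE M21 and promoters from RefSeq, both on the build of the files. Day0 entered no test. The members, the gene lists, the tests and the alternatives were chosen with earlier results of these data known. The genes named were the 9 members, Smarcc1, listed genes with an adjusted p under 0.05 for knockdown or either hairpin, and for each member the genes with the highest within-day correlation. Genes named for low reads, for a shift on day 6 or for an estimate beside the others were chosen after their values were seen. Python 3.11.15, pandas 2.3.3 and matplotlib 3.10.9 were used.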

Additional observations from a re-analysis of the deposited data

Results flagged for a closer look

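A sample was looked at again when its gap to the nearest of the 4 libraries of its group, divided by the range of the group, exceeded Dixon's 95% critical value. Of 50 sets of 4 (the levels in each group and the same-day differences of each hairpin, for the 9 members and Smarcc1), 3 were picked out this way, where chance alone picks about 1 in 20. Because the 4 libraries are harvest days in sequence, a gene that moves between day 4 and day 5 and is then level will be picked out.

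In Nons, Notch3 on day 4 (5.26) stood 1.50 below the nearest other day. In Nons, Dll3 on day 4 (1.18) stood 1.82 below the nearest other day. For Smarcc1 the difference between Smarcc1.7 and Nons was -0.38 on day 7 and stood 0.70 from that of the nearest other day (-1.08). It was the smallest in size of the 8 comparisons, and that of Smarcc1.6 was also smallest on day 7 (-0.61). On days 4 to 7 Smarcc1 fell in Nons (9.10, 8.87, 8.28 and 7.89) and was at 7.96, 7.78, 7.17 and 7.51 in Smarcc1.7. The day 7 library of Smarcc1.7 was highest for Notch1 and Notch3, and a link to Smarcc1 was not tested.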

How the results depend on the processing

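Over 54 results of the 9 members (6 comparisons each), 1236 alternative values were computed, and 1196 kept their side of the threshold, with 28 calls lost, 12 gained and 0 called values reversed. In 96 of the 1196 an estimate that was not called changed sign. The number of members called for knockdown was 1, and 0 without a filter on low values, with a filter at a mean log2 CPM of 2, without the mean-variance trend, with libraries centred on the autosomal median, with voom on recovered reads, without the replicate block (day left out of the model), and with Smarcc1.6 or Smarcc1.7 alone. It ran from 0 to 2 when libraries or days were left out. Members called ran from 0 to 2 for Smarcc1.6 and stayed at 0 for Smarcc1.7, between hairpins and for the interaction. For the change per day they ran from 5 to 7, and from 5 to 6 under the other settings. Other pathway genes called for knockdown were 8 in the fit reported, 0 without the replicate block and 0 with Smarcc1.6 or Smarcc1.7 alone, and 4 to 14 when libraries or days were left out. Rbpj, Mib2, Dtx1 and Kat2b were called in 22 of 25 alternatives each, Tle3 in 21, Notch4 in 17, Tle4 in 10 and Numb in 4. The cause of these changes was not tested, except that fits of 1 hairpin hold fewer libraries and those without the block leave the change over days in the residual. Hey1 has no value with the filter at 2, which it does not pass. Leaving out a library leaves a group with 3 days. With 1 library per group and day, the difference on a single day has no replicate, and the lowest counts (Dll1 and Dll3 at Day0) limit any fold against Day0.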
